A study of Callithrix jacchus with 71 samples.

Results

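The collagen genes are the rows of the marmoset single-cell table whose symbol is COL, a number, A and a number. There were 44 of them among 23561 named genes, and every member had a read in at least 2 iNSLCs. They were sorted into 9 classes by the kind of assembly their chains form: 11 fibrillar genes, 6 of the basement membrane network, 5 of beaded filaments (type VI), 10 FACITs, 4 transmembrane genes, 3 of short-chain networks, 2 multiplexins, 1 of anchoring fibrils (type VII) and 2 others.

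A collagen molecule is a triple helix of chains, and many types need chains from more than 1 gene. Fibrillar collagens carry the load of skin, bone and cartilage, type IV forms the mesh of basement membranes, and FACITs sit on the surface of fibrils. Dermal fibroblasts are the classic makers of types I, III, V and VI, whereas neuroepithelial cells rest on a basement membrane.

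The study derived iPSCs free of transgenes from fibroblasts of several mammals, and it used single marmoset cells to look at how varied an early-passage intermediate was. Single-cell RamDA-seq, which copies total RNA along the whole transcript, was applied to 71 sorted cells of 4 kinds. The 65 induced neural stem cell-like cells (iNSLCs) came from clone E01F A-2 at passage 1. That clone was derived from dorsal-skin fibroblasts of an embryonic marmoset, which received episomal vectors for OCT4, SOX2, KLF4, L-MYC, LIN28, the dominant-negative mouse p53 mutant mp53DD and EGFP and were induced on mouse feeder cells in NSM, a medium the group had used before to bring primed pluripotent cells to a putative naive state. The comparison cells were 4 no. 40 ESCs and 1 cell of the iPSC clone E01F A-2-2, grouped here as 5 pluripotent stem cell (PSC) cells, and 1 E01F fibroblast, the starting cell type. Each group has 1 named source and was treated as 1 culture. Its cells are not replicates of a condition, so no test between groups was made, and every SD below is a spread over cells.

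iNSLCs held 82268 to 695241 reads (median 268128), the ESCs 134328 to 1003718, the iPSC 302617 and the fibroblast 1294430. ESC 11 was the shallowest PSC cell, with 2.55 normalized counts for 1 read. Where leaving it out ends a 2-fold call or moves a value by over 1.5-fold, the collagen value without it is given. Genes of the marker and other lists were not recomputed without it. The fibroblast and PSC labels matched their markers. The 14 fibroblast markers summed to 5177 normalized counts in the fibroblast, 219 to 530 in PSC cells and 6.88 to 406 (median 89.1) in iNSLCs. Of the 14, 13 were at least 2-fold lower in iNSLCs than in the fibroblast, beside 26.5% of all genes tested. They were not absent, since 5 of the 14 had a read in over 50% of iNSLCs, beside 44.6% of all genes. ACTA2 was at 15.2 in iNSLCs, 0.909 in PSC cells and 2347 in the fibroblast, and PDGFRA at 2.67, 0 and 80.1. FBLN1 was at 33.7, 151 and 0.809, and FBLN2 at 30.5, 124 and 1056. DCN and LUM each had a read in 1 of 65 iNSLCs and PRRX1 had none, with 17.4, 2.43 and 199 in the fibroblast. Pluripotency markers were at least 2-fold lower in iNSLCs than in PSC cells for 12 of 12 genes, beside 30.4% of all genes tested. LIN28A was at 67.6 and the other 11 at means under 1. Of 12 neural stem cell markers 8 were at least 2-fold higher, among them PAX6, CDH2, VIM and HES5, beside 15.2% of all genes. Against the fibroblast 10 of the 12 were higher and 1 lower, beside 26.1% and 26.5% of all genes. VIM was the lower gene, at 2771 in iNSLCs and 7161 in the fibroblast, and CDH2 was at 135 and 97.5. The iNSLC label held for these lists, except that VIM and CDH2 did not mark iNSLCs against the fibroblast. Of 10 neural crest markers, 5 were at least 2-fold higher in iNSLCs than in PSC cells and 4 were lower. PAX3 (95.2 ± 81.9) and SOX9 (23.7 ± 19.7) were present. ERBB3 was at 2.49 and ETS1 at 1.03 in iNSLCs, against 93.3 and 21.6 in PSC cells. The part of these other markers in the collagen values was not tested.

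Collagen transcripts were a small share of the RNA of iNSLCs and of PSC cells and a large share of the fibroblast's. The 44 genes summed to 1168 ± 516 normalized counts in iNSLCs (SD, 65 cells, 262 to 2590) and to 1404 ± 833 in PSC cells (5 cells, 657 to 2740), against 44835 in the fibroblast. They made up a median of 0.369% of all normalized counts in an iNSLC and 8.56% in the fibroblast. The fibroblast was 38.4-fold above the iNSLC mean, and no iNSLC came near it. Between iNSLCs and PSC cells the summed level differed little, with a log2 ratio of -0.27 on the log2(value + 1) scale used for all ratios below, and this ratio turned to 0.13 without ESC 11.

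What differed between iNSLCs and PSC cells was which collagens made up that sum. The filter asked for a mean of at least 1 in either group, and 35 of the 44 members passed it. Of these, 10 were at least 2-fold higher in iNSLCs, where 15.2% of all genes tested were, and 14 were at least 2-fold lower, where 30.4% of all genes were. The remaining 11 lay between. The median log2 ratio of the 35 was -0.45, beside -0.37 for all 16269 genes tested. Those higher in iNSLCs were COL1A2, COL2A1, COL5A2 and COL11A1 of the fibrillar class, COL4A3, COL4A4 and COL4A5 of the basement membrane, the FACITs COL12A1 and COL14A1, and COL28A1. Of this set COL4A3 had 0 reads in PSC cells, COL4A4 and COL28A1 had 1 and COL12A1 had 2. Those lower were all 3 main type VI genes (COL6A1, COL6A2, COL6A3), COL1A1, COL5A3, COL11A2, COL4A1, COL7A1, COL8A1, the FACITs COL9A3 and COL22A1, and the transmembrane COL17A1, COL23A1 and COL25A1. Without ESC 11 the counts were 9 higher and 12 lower. COL22A1 was at 6.88, 33.2, 0, 0.833 and 0 in ESCs 10, 11, 12 and 14 and the iPSC, and its log2 ratio of -2.31 became -0.66 without ESC 11. COL23A1 went from -1.08 to -0.51 without the iPSC. COL15A1 went from -0.43 to 1.07 without ESC 10, and COL20A1 from 0.28 to 1.02 without ESC 14. COL10A1 (-0.98) and COL8A2 (-0.93) lay just inside the 2-fold line and crossed it when some PSC cells were left out, to -1.24 and -1.12 at most. COL11A2 went from -1.91 to -1.15 without ESC 14.

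Against the fibroblast, 34 members passed the filter. Of these, 8 were at least 2-fold higher in iNSLCs, where 26.1% of all genes were, and 19 were at least 2-fold lower, where 26.5% were. The median log2 ratio of the 34 was -1.38, beside -0.08 for all 15181 genes tested. The 8 higher genes were COL2A1, COL11A1, COL4A4, COL4A5, COL4A6, COL14A1, COL20A1 and COL26A1. COL4A5 had no read in the fibroblast and was at least 70.7-fold higher in iNSLCs, measured against a floor of 3 reads, and COL2A1 was at least 73.9-fold higher in the same way. For 16 of the 44 members no iNSLC exceeded the fibroblast. The same count was not made over all genes, so it cannot be said whether this is many. The fibroblast had 1294430 reads, beside a median of 268128 in iNSLCs. There was 1 fibroblast, so these values compare iNSLCs with that cell.

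**Figure D1:**
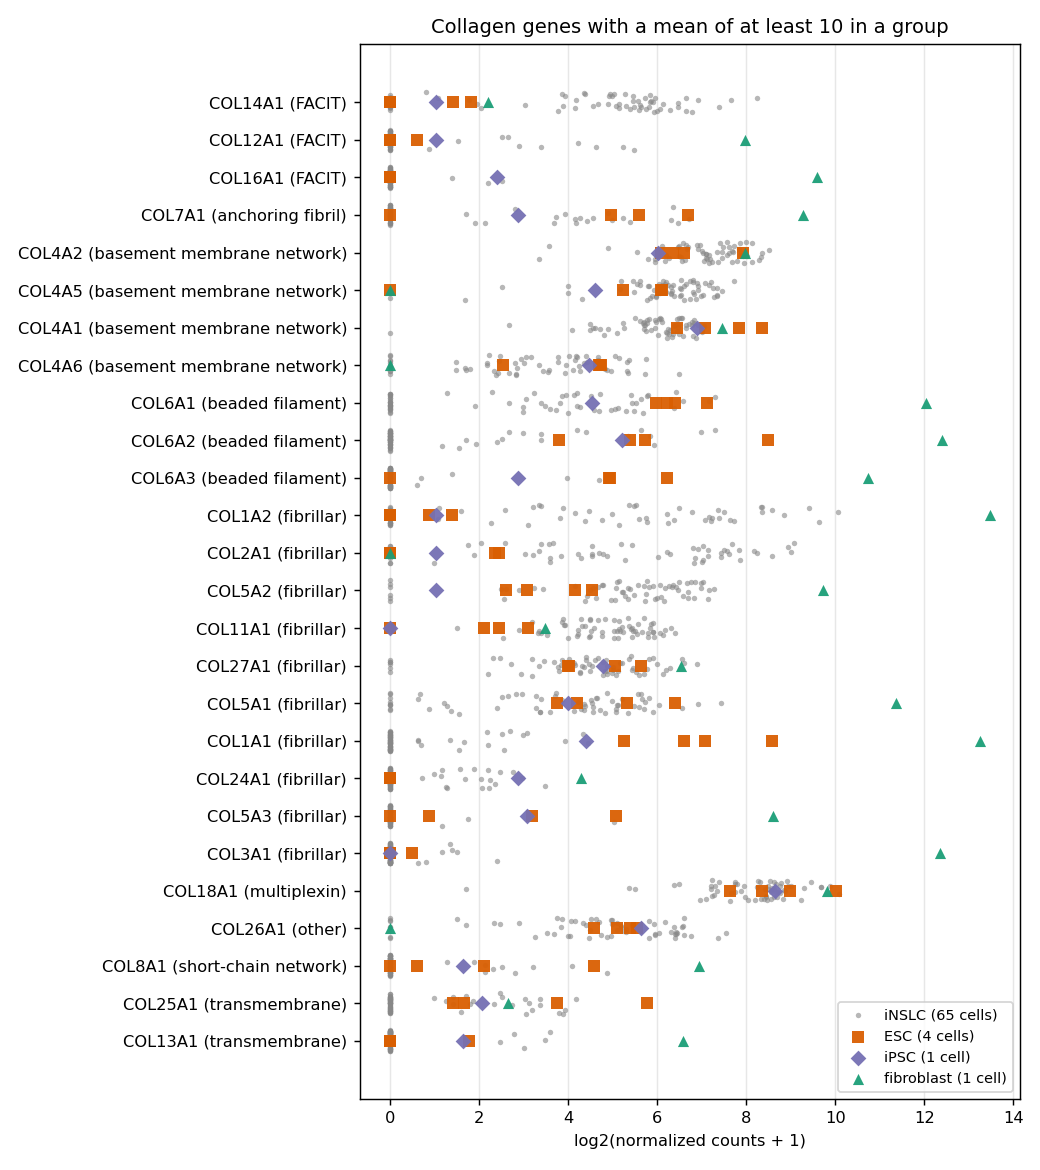
Levels of the 26 collagen genes with a mean of at least 10 normalized counts in iNSLCs, PSC cells or the fibroblast, 1 row per gene and 1 point per cell, on a log2(normalized counts + 1) axis (65 iNSLCs, 4 ESCs, 1 iPSC, 1 fibroblast). The fibroblast lies right of every iNSLC for COL1A1, COL1A2, COL3A1 and the type VI genes, and at 0 for COL2A1, COL4A5, COL4A6 and COL26A1.

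The classes differed between the groups. Fibrillar collagens summed to 339 ± 276 normalized counts in iNSLCs, 228 ± 180 in PSC cells and 30338 in the fibroblast, and their log2 ratio to PSC cells of 0.57 became 1.14 without ESC 11. Their median share of the collagen sum was 24.5% in iNSLCs, 9.23 to 19.2% in PSC cells and 67.7% in the fibroblast. Type VI and its relatives summed to 31.3 ± 47.0 in iNSLCs, 203 ± 208 in PSC cells and 11289 in the fibroblast, and the PSC mean was 112 ± 42.7 without ESC 11. By contrast the basement membrane class stood at 335 ± 128, 349 ± 156 and 425 in the same order, within 1.27-fold between iNSLCs and fibroblast. Multiplexins were at 347 ± 208, 496 ± 325 and 908, and the FACITs at 55.0 ± 51.4, 17.1 ± 12.9 and 1025. Class sums add normalized counts that are not divided by transcript length, so long transcripts weigh more in them, and they are compared here only between groups.

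The type I chains did not move together. Type I collagen is normally built from COL1A1 and COL1A2 chains, and the fibroblast held many reads of both, at 9769.5 and 11345 normalized counts. COL1A2 in iNSLCs ranged from 0 to 1069 with a median of 19.9 and a mean of 104 ± 198, and 45 of 65 cells had a read (69.2%, exact 95% interval 56.6 to 80.1). In ESCs 10, 11, 12 and 14 it was at 1.62, 0, 0 and 0.833, and in the iPSC at 1.07. The iNSLC mean was 148-fold above the PSC mean (log2 ratio 5.95), 43 iNSLCs lay above the highest PSC cell, and the fibroblast was 109-fold above the iNSLC mean.

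COL1A1 showed the opposite order. It was at 96.7, 380.4, 37.3 and 133 in the 4 ESCs, in the same order, and at 20.3 in the iPSC. In iNSLCs it ranged from 0 to 21.0 with a mean of 1.52 ± 4.12, and 16 of 65 cells had a read (24.6%). Of 65 iNSLCs, 64 lay below the lowest PSC cell. The PSC mean was 88.1-fold higher (log2 ratio -5.74, and -4.86 without ESC 11), and the fibroblast was 6439-fold higher. The ratio of COL1A2 to COL1A1 normalized counts was 68.8 in iNSLCs, 1.16 in the fibroblast and 0.00527 in PSC cells (0.0122 without ESC 11). These ratios were not divided by transcript length, and whether transcript forms differed between groups was not tested. It was 97.9 in iNSLCs numbered 56 or below and 55.3 in those numbered 57 or above.

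**Figure D2:**
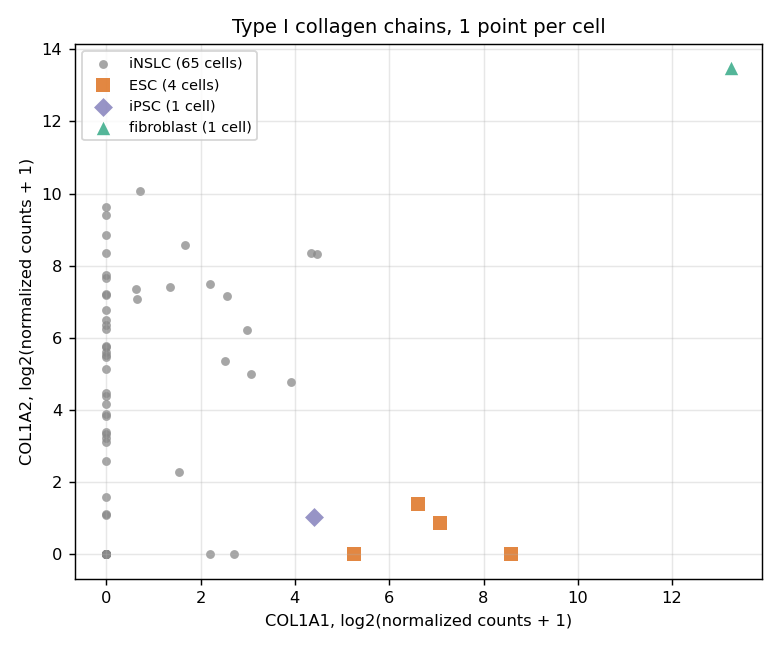
COL1A1 against COL1A2 in each cell, both on a log2(normalized counts + 1) scale, with symbols for 65 iNSLCs, 4 ESCs, 1 iPSC and 1 fibroblast. iNSLCs spread along the COL1A2 axis with little COL1A1, the 5 PSC cells lie along the COL1A1 axis with little COL1A2, and the fibroblast is high in both.

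In single iNSLCs both type I genes were detected together in 14 of 65 cells (21.5%, exact 95% interval 12.3 to 33.5). These were 87.5% of the cells with COL1A1 and 31.1% of the cells with COL1A2. A further 31 cells had a read of COL1A2 and not of COL1A1, 2 had the reverse, and 18 had neither. When cells were thinned to 131531 reads, 10 of 58 held both. Pearson's r over the 65 cells was 0.27, and it was 0.51 in the cells numbered 56 or below and 0.13 in the others.

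The 5 iNSLCs with the most COL1A2 held little COL1A1 or COL3A1, but some held other collagens of the fibroblast. iNSLC 50 had 1069 normalized counts of COL1A2, 0.634 of COL1A1 and 1.27 of COL3A1. iNSLC 72 had 796 of COL1A2 and no read of COL1A1 or COL3A1. iNSLC 94 had 677 of COL1A2 with COL3A1 at 1.57. In iNSLCs 62 and 38, with 461 and 384 of COL1A2, COL1A1 was at 0 and 2.16. DCN had no read in any of the 5 cells and LUM only in iNSLC 38, at 0.719. COL6A1 was at 142 and COL5A2 at 85.1 in iNSLC 72, and COL5A1 was at 120.0 in iNSLC 38, whereas in iNSLC 50 these 3 genes were at 6.97, 5.07 and 0. PAX6, a neural stem cell factor with an iNSLC mean of 22.8, was at 4.44, 7.92, 40.7, 21.1 and 2.87 in iNSLCs 50, 72, 94, 62 and 38. SOX2, another marker of that list with an iNSLC mean of 98.1, was at 143, 172, 194, 164 and 94.1 in the same order.

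COL3A1, the partner of type I in skin fibrils, was nearly absent outside the fibroblast. It had a read in 7 iNSLCs, up to 4.31 normalized counts, and in 1 PSC cell, against 5228.5 in the fibroblast. COL1A1, COL3A1 and COL6A3 are 3 genes with high levels in the fibroblast, and 19 of 65 iNSLCs had a read of any of them while 2 had all 3.

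COL2A1, the fibrillar collagen of cartilage and notochord that neuroepithelium also makes in the embryo, was high in some iNSLCs. It ranged from 0 to 536 with a median of 22.4 and a mean of 89.8 ± 129, and 51 of 65 cells had a read (78.5%). The ESCs held 4.45, 0, 0 and 4.17, the iPSC 1.07 and the fibroblast none. The iNSLC mean was 46.3-fold above the PSC mean (log2 ratio 4.95), and 47 iNSLCs were above the highest PSC cell, while 14 had no read at all.

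COL11A1, a chain that nucleates thin fibrils with type II, was more evenly spread. It had a read in 63 of 65 iNSLCs, with a median of 31.8 and a mean of 32.8 ± 20.3. It was at 4.45, 7.66, 0 and 3.33 in the ESCs, at 0 in the iPSC and at 10.1 in the fibroblast, so that 60 iNSLCs were above every PSC cell and 56 above the fibroblast. Its log2 ratio was 3.05 against PSC cells and 1.60 against the fibroblast. Its partner gene COL11A2, which was lower in iNSLCs than in PSC cells, was found with it in 5 iNSLCs.

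Type V chains, which set fibril diameter, shifted against each other too. COL5A2 averaged 53.9 ± 41.4 over iNSLCs with reads in 59 cells. It was at 22.3, 5.11, 16.7 and 7.50 in the ESCs, 1.07 in the iPSC and 839 in the fibroblast. COL5A1 averaged 24.7 ± 30.0 in iNSLCs and stood at 39.3, 84.3, 17.3 and 12.5 in the ESCs, 15.0 in the iPSC and 2646 in the fibroblast. The log2 ratio to PSC cells was 2.25 for COL5A2 and -0.43 for COL5A1, the latter becoming 0.22 without ESC 11. The ratio of COL5A2 to COL5A1 was 2.18 in iNSLCs, 0.313 in PSC cells and 0.317 in the fibroblast. The PSC value was 0.566 without ESC 11, and single PSC cells ranged from 0.0606 to 0.969. The third chain, COL5A3, had reads in 3 iNSLCs and stood at 390 in the fibroblast. It was at 32.8, 0, 8.10 and 0.833 in the ESCs and 7.48 in the iPSC (log2 ratio -2.81, and -1.73 without ESC 10).

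COL27A1 and COL24A1 form a separate branch of the fibrillar genes. COL27A1 was at 29.2 ± 25.0 in iNSLCs, 27.6 ± 13.8 in PSC cells and 91.9 in the fibroblast, and iNSLCs and PSC cells overlapped. COL24A1 had reads in 19 iNSLCs with a mean of 0.965 and was at 18.6 in the fibroblast. Among PSC cells it was seen in the iPSC alone, at 6.41.

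The type IV genes lie as neighbouring pairs in the marmoset annotation, COL4A1 with COL4A2, COL4A3 with COL4A4 and COL4A5 with COL4A6. The first pair makes the common basement membrane network and the other two make tissue-restricted networks. COL4A2 was detected in all 65 iNSLCs, as was COL18A1, and these were the only 2 members so (6.94% of all genes were). COL4A2 ranged up to 361 with a median of 142 and a mean of 158 ± 80.7. It was at 243, 97.0, 67.0 and 81.6 in the ESCs, 64.1 in the iPSC and 250.1 in the fibroblast, so the groups overlapped. The log2 ratio to PSC cells was 0.51, and 1.02 without ESC 10.

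COL4A1 went the other way. It had a median of 68.2 and a mean of 69.3 ± 32.0 in iNSLCs, and was at 229, 327, 85.8 and 133 in the ESCs, 118 in the iPSC and 175 in the fibroblast. Of 65 iNSLCs, 43 lay below the lowest PSC cell and none above the highest. The PSC mean was 2.57-fold and the fibroblast 2.52-fold higher. The ratio of COL4A2 to COL4A1 was 2.28 in iNSLCs, 0.619 in PSC cells and 1.43 in the fibroblast. ESC 10, at 1.06, was the highest of the PSC cells in this ratio. Both genes were detected in 64 of 65 iNSLCs (98.5%), and their r was 0.42 (0.31 and 0.35 within the cell-number sets).

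COL4A5, a chain of the network of kidney and smooth muscle basement membranes, marked iNSLCs against the fibroblast. It was seen in 64 iNSLCs with a median of 79.6 and a mean of 85.9 ± 44.6, and not in the fibroblast. ESCs held 68.0, 0, 36.7 and 67.5 and the iPSC 23.5. The log2 ratio to PSC cells was 1.11, but 0.80 without ESC 11 and 0.98 without the iPSC, so the 2-fold call rests on single cells. Its neighbour COL4A6 had reads in 55 iNSLCs (mean 14.7 ± 16.4), was at 25.9, 25.5, 4.86 and 25.0 in the ESCs and 21.4 in the iPSC, and had no read in the fibroblast, where its bound was at least 12.1-fold. The ratio of COL4A6 to COL4A5 was 0.171 in iNSLCs and 0.525 in PSC cells.

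The third pair was sparse. COL4A4 had reads in 33 iNSLCs with a mean of 5.52 ± 9.53, and COL4A3 in 21 with a mean of 1.09. PSC cells held 1 read of COL4A4 and none of COL4A3, which places COL4A3 at least 1.68-fold higher in iNSLCs. This bound is under 2-fold, although the log2(value + 1) ratio of COL4A3, 1.06, was called past 2-fold above. The fibroblast had no read of COL4A4 and 1 of COL4A3. They were found together in 14 iNSLCs, which is 66.7% of the cells with COL4A3 and 42.4% of those with COL4A4.

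COL18A1, a heparan sulfate proteoglycan of basement membranes whose fragment is endostatin, was present in every cell. It ranged up to 1081 in iNSLCs with a mean of 345 ± 208, and was at 502, 1039, 199 and 327 in the ESCs, 399 in the iPSC and 906 in the fibroblast. The log2 ratio was -0.51 to PSC cells and -1.39 to the fibroblast, and 2 iNSLCs exceeded the fibroblast. Its relative COL15A1 was found in 12 iNSLCs.

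Among the FACITs COL14A1, which binds fibrils in tendon and skin, stood out. It had reads in 56 of 65 iNSLCs, with a median of 34.4, a maximum of 299.8 and a mean of 45.2 ± 50.9. It was at 0, 2.55, 0 and 1.67 in the ESCs, 1.07 in the iPSC and 3.64 in the fibroblast. Of 65 iNSLCs, 53 were above every PSC cell and 51 above the fibroblast. The iNSLC mean was 42.8-fold the PSC mean (log2 ratio 4.49, resting on 4 PSC reads) and 12.4-fold the fibroblast value.

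The other FACITs were scarce in iNSLCs. COL12A1, a fibril-associated collagen of dense connective tissue, had reads in 10 iNSLCs (mean 2.31) and was at 252 in the fibroblast. COL16A1 had reads in 3 iNSLCs and was at 769 in the fibroblast. COL20A1 had reads in 24 iNSLCs with a mean of 4.52 ± 8.40, was at 3.54 ± 4.43 in PSC cells and had none in the fibroblast.

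Type VI, the microfibril of fibroblast matrix, was low in iNSLCs for each of its main chains. COL6A1 had reads in 41 iNSLCs (median 9.48, mean 21.3 ± 32.1). It was at 83.0, 138, 74.0 and 61.6 in the ESCs, 22.4 in the iPSC and 4211 in the fibroblast. COL6A2 had reads in 18 iNSLCs with a mean of 8.85 ± 27.3. It was at 40.9, 357, 13.0 and 51.6 in the ESCs, 36.3 in the iPSC and 5370.5 in the fibroblast. COL6A3 had reads in 5 iNSLCs with a mean of 0.655, was at 29.6, 74.0, 0 and 29.2 in the ESCs, 6.41 in the iPSC and 1707 in the fibroblast. The log2 ratios to PSC cells were -1.78, -3.36 and -4.12, and the last 2 were -1.89 and -3.38 without ESC 11. The ratio of COL6A2 to COL6A1 was 0.416 in iNSLCs, 1.32 in PSC cells and 1.28 in the fibroblast. The PSC value rested on ESC 11 and was 0.588 without it, and 3 of 5 PSC cells had more counts of COL6A1. These neighbouring genes were detected together in 14 iNSLCs, 34.1% of the cells with COL6A1 and 77.8% of those with COL6A2.

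COL7A1, the anchoring fibril of the skin's basement membrane, had reads in 20 iNSLCs with a mean of 9.80 ± 22.4. It was at 102, 0, 30.2 and 47.5 in the ESCs, 6.41 in the iPSC and 622 in the fibroblast. Its log2 ratio to PSC cells was -1.82, and -1.03 without ESC 10. COL26A1, a small collagen-like protein, had reads in 58 iNSLCs with a mean of 41.2 ± 39.1. It was at 40.9, 23.0, 45.9 and 33.3 in the ESCs and 49.2 in the iPSC, within the iNSLC range, and had no read in the fibroblast, a bound of at least 33.9-fold.

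Of the transmembrane and short-chain genes, COL25A1 was at 2.18 ± 4.10 in iNSLCs. Its values in the ESCs were 12.5, 53.6, 2.16 and 1.67 and in the iPSC 3.21, and the log2 ratio of -2.30 became -0.89 without ESC 11. COL13A1 had reads in 5 iNSLCs and was at 95.5 in the fibroblast. COL8A1 had reads in 10 iNSLCs and was at 122 in the fibroblast, and its ratio to PSC cells of -1.63 became -0.18 without ESC 11. The 18 members with means under 10 in every group had iNSLC means of 0.117 to 5.52, PSC means of 0 to 8.18 and fibroblast values of 0 to 2.02, with reads in 2 to 33 iNSLCs. Among all 44 members, 16 had no read in the fibroblast and 28 had one. That cell had reads of 14513 of all 23561 named genes, a similar share.

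Single iNSLCs held a varied set of collagens. A cell had reads of 9 to 27 members with a median of 18, beside 19 to 31 (median 28) in PSC cells and 28 in the fibroblast, whose median depths were 464547 and 1294430 reads. Of all 23561 named genes, a median of 10781 had a read in an iNSLC and 15122 in a PSC cell, and 14513 had one in the fibroblast. The collagen counts thus followed the detection of genes in general. The median number of collagens in an iNSLC was 17 after thinning. Of the 44 members 15 were found in over 50% of iNSLCs, where 44.6% of all genes were. Every iNSLC had a read of COL1A2, COL2A1 or COL14A1. All 3 were present in 30 cells, COL1A2 with COL2A1 in 8, COL1A2 with COL14A1 in 7, COL2A1 with COL14A1 in 12, COL14A1 alone in 7 and COL2A1 alone in 1.

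**Figure D3:**
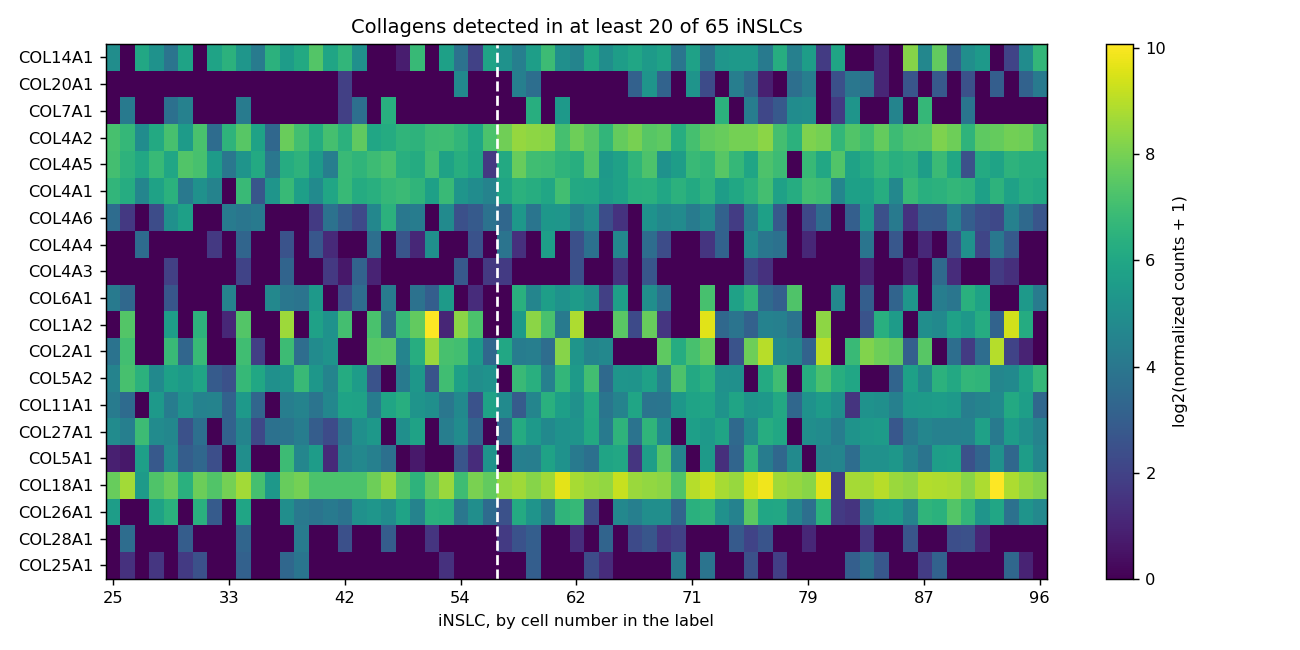
Heat map of the 20 collagen genes detected in at least 20 iNSLCs, 1 row per gene and 1 column per iNSLC in order of cell number, coloured by log2(normalized counts + 1), with a line between cells 56 and 57 (27 columns to its left and 38 to its right). COL4A2 and COL18A1 are present in every column, whereas COL1A2, COL2A1 and COL14A1 change from cell to cell.

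COL2A1 and COL14A1 tended to be high in different cells. Of 65 iNSLCs, 23 had at least 100 normalized counts of COL2A1, and among these none reached 100 of COL14A1. In those 23 cells COL14A1 had a median of 12.8 and a maximum of 55.1. All 9 iNSLCs without a COL14A1 read had COL2A1, and all 14 without COL2A1 had COL14A1. Only 5 cells reached 100 of COL14A1, so the lack of shared cells at that level says little by itself. Pearson's r of the log2 values was -0.55 over 65 cells, -0.56 in cells numbered 56 or below, -0.55 in the others and -0.56 after thinning. The pair had the lowest r of the 190 collagen pairs described below and was singled out after the values were seen. These values describe cells of 1 culture that share their preparation and differ in depth.

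**Figure D4:**
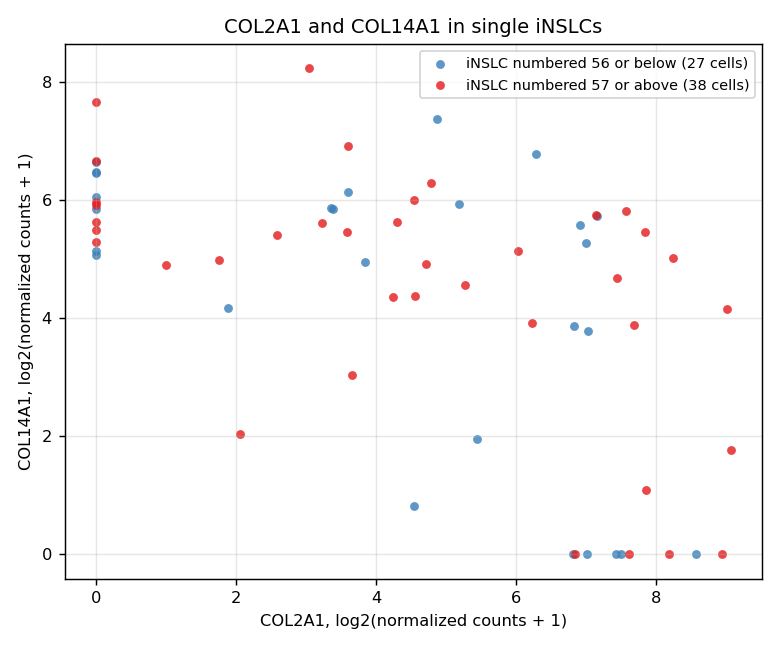
COL2A1 against COL14A1 in the 65 iNSLCs, both on a log2(normalized counts + 1) scale, coloured by cell number (27 cells numbered 56 or below, 38 numbered 57 or above). The upper right corner is empty, and both colours lie along the same falling band (r -0.55).

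COL1A2 leaned towards the COL2A1 side, though less evenly. Its r was 0.31 with COL2A1 and -0.32 with COL14A1. The first was 0.71 in cells numbered 56 or below and -0.01 in the others, and the second was -0.47 and -0.18. Of 18 cells with at least 100 of COL1A2, 8 also had at least 100 of COL2A1. Some marker sums moved with these genes in the same cells. LIN28A, the only pluripotency marker with reads in more than 7 iNSLCs and a factor that was also on the vectors, had r 0.43 with COL2A1, 0.38 with COL1A2 and -0.39 with COL14A1 over the 65 cells. The summed neural crest markers had -0.35, -0.25 and 0.37, and the summed neural stem cell markers -0.20, 0.03 and 0.32. Fibroblast markers had 0.37, 0.24 and -0.29 in that order. A few genes make up much of each sum. VIM had an iNSLC mean of 2771, beside a median neural stem cell sum of 3598, and PAX3 95.2, beside 137 for the crest. FBLN1 and FBLN2, at 33.7 and 30.5, had the highest means of the fibroblast list (median sum 89.1). FBLN1 was at 0.809 in the fibroblast itself. The part of these markers in the collagen pattern was not tested.

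Among the 20 members with reads in at least 20 iNSLCs there were 190 pairs. Of these, 27 pairs (14.2%) had r of at least 0.3, where 3.29% of all gene pairs did, and 2 had r of -0.3 or lower, where 1.35% did. The median r was 0.13. The highest values were between COL4A1 and COL26A1 (0.61), COL4A2 and COL18A1 (0.56), COL4A2 and COL26A1 (0.51), COL4A2 and COL11A1 (0.50), and COL18A1 and COL26A1 (0.50). Of the 27 pairs, 26 were positive in both sets of cell numbers, 9 reached 0.3 in both, and 21 pairs reached it after thinning. The set of all pairs was not matched to the collagens for level or for the number of cells with a read.

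Chains of the same type, which in this set were nearly all type IV, reached this r about as often as all collagen pairs. Of 16 pairs of genes of the same type within the set, 2 (12.5%, beside 14.2% of the 190) reached 0.3, COL4A1 with COL4A2 (0.42) and COL4A2 with COL4A3 (0.30). Apart from COL5A1 with COL5A2, all of the 16 were type IV pairs. COL5A1 and COL5A2 were found together in 51 iNSLCs with r 0.00. COL4A5 and COL4A6 were found together in 55 with r 0.19, COL4A3 and COL4A4 had r 0.19, and COL6A1 and COL6A2 had r 0.21. The last 3 are neighbouring pairs in the marmoset annotation, and COL6A2, with reads in 18 iNSLCs, lies outside the set.

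**Figure D5:**
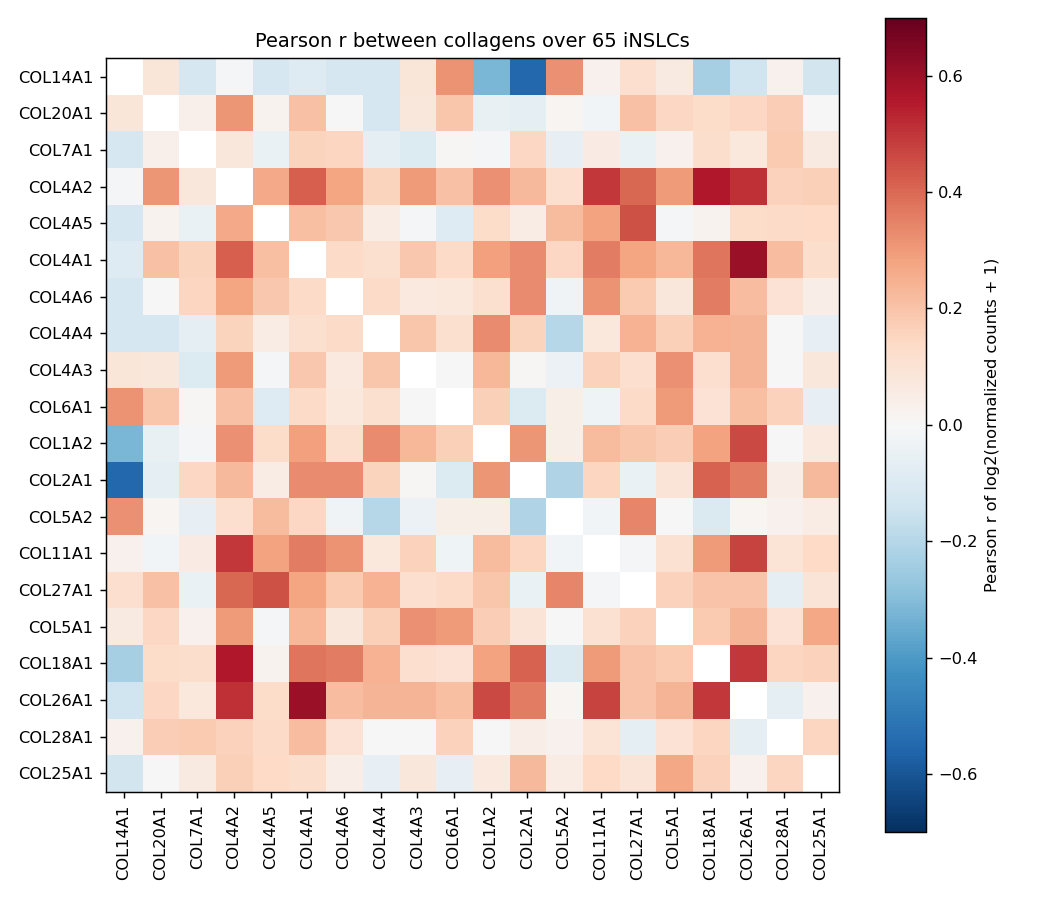
Pearson's r of log2(normalized counts + 1) over 65 iNSLCs for each pair of the 20 collagen genes detected in at least 20 iNSLCs, red for positive and blue for negative values. Red cells gather among COL4A1, COL4A2, COL11A1, COL18A1 and COL26A1, and the deepest blue cell is COL2A1 with COL14A1 (-0.55).

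Some members differed between the iNSLCs numbered 56 or below (27 cells, median 357910 reads) and those numbered 57 or above (38 cells, median 208745.5 reads). The labels do not say what the numbers stand for. The higher numbers had more collagens per cell, a median of 19 against 15, and fewer reads. The number of all genes with a read was not compared between the sets. Of 27 members with a mean of at least 1 over all iNSLCs, 4 were at least 2-fold higher in the higher numbers, where 7.31% of all genes were, and 1 was at least 2-fold lower, where 7.11% were. COL18A1 was at 199.97 in the lower numbers and 449 in the higher, COL6A1 at 9.16 and 29.9, COL6A2 at 3.32 and 12.8, and COL20A1 at 1.08 and 6.96. COL12A1 was the lower member, at 4.74 and 0.585. When a mean of at least 1 in either set was enough, 32 members were tested, with 6 higher (7.33% of all genes) and 3 lower (7.10%). COL6A3 and COL13A1 were added above, and COL5A3 and COL11A2 below, all with means under 1.5. COL20A1 had reads in 7.41% of the lower-numbered cells and 57.9% of the others. With the lower numbers alone the log2 ratio of COL18A1 to PSC cells was -1.30, past the 2-fold line.

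For the 4 members with the highest iNSLC means, no more than 1 from each chain pair, the genes with the most similar pattern were sought among 10712 named genes over the 65 cells. COL18A1 was followed most closely by RAC3 (r 0.74), MDK (0.73), RPAP1 (0.71), AHCY (0.70) and SERPING1 (0.66). COL4A2 was closest to DENND2B (0.68), PTPRS (0.68), PACS2 (0.66), PLXNB1 (0.66) and NOP53 (0.66). COL1A2 reached lower values, with FSTL1 (0.52), VTN (0.52), PLTP (0.49), SORL1 (0.49) and HMGA2 (0.49). COL2A1 was closest to SFRP2 (0.62), ASS1 (0.58), ABLIM1 (0.57), DPP6 (0.53) and FAM241B (0.53). These are the highest of many values and describe these cells.

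Genes that build the collagen helix were present in iNSLCs. For this list and those that follow, 15.2% of all genes were higher and 30.4% lower than in PSC cells, and 26.1% and 26.5% against the fibroblast, and no list was tested against these shares. Of 20 tested genes for hydroxylation, glycosylation and folding, 5 exceeded PSC cells by 2-fold or more and 2 were lower, with a median log2 ratio of 0.50, and 13 of 21 were lower than in the fibroblast. P4HA1, a subunit of prolyl 4-hydroxylase, was at 54.9 ± 61.5 in iNSLCs, 11.4 ± 13.5 in PSC cells and 14.2 in the fibroblast. TMEM38B, an ion channel of the endoplasmic reticulum needed for collagen modification, was at 29.1, 9.99 and 1.62 in that order. P3H1, a prolyl 3-hydroxylase, was lower at 4.48, 22.0 and 77.3, and P3H2 was at 1.53 with no PSC read and 26.3 in the fibroblast. P3H1 ranged from 9.18 to 63.8 over PSC cells. COLGALT2, a collagen galactosyltransferase, was at 6.91 ± 10.9, 0.0810 and 4.45. SERPINH1, the collagen chaperone HSP47, was at 186, 229 and 981.

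Of 13 genes that trim and cross-link collagen outside the cell, 2 were higher and 5 lower than in PSC cells, shares near those of all genes. Against the fibroblast 10 of 12 were lower and 2 higher. ADAMTS3, a procollagen N-proteinase, had the largest ratio to PSC cells of this list, at 5.29 ± 9.73 in iNSLCs with no read in PSC cells or the fibroblast. LOX, which cross-links fibrils, was at 8.69 in iNSLCs, 0.571 in PSC cells and 171 in the fibroblast. ADAMTS2, a relative of ADAMTS3, was at 1.11, 8.15 and 387, the proteinase enhancer PCOLCE at 1.01, 4.58 and 188, and TLL2 at 4.28, 12.2 and 0.

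Receptors differed in kind. Of 7 tested none was 2-fold higher than in PSC cells and 3 were lower, and against the fibroblast 2 were higher and 5 lower. DDR1, the epithelial collagen receptor kinase, was at 148 ± 82.2, 74.0 ± 12.9 and 29.1, whereas DDR2, the mesenchymal one that binds fibrillar collagen, had no read in any iNSLC and was at 235 in the fibroblast. ITGA11 was at 0.717, 14.1 and 363, and ITGA1 had no iNSLC read.

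Among genes for collagen degradation and its inhibitors, 3 of 6 tested were higher than in PSC cells and 2 lower. The higher were MMP2 and the inhibitors TIMP1 and TIMP2, and the lower were MMP14 and the inhibitor TIMP3. MMP2, a gelatinase, was at 347 ± 194 in iNSLCs, 37.3 ± 23.3 in PSC cells and 366 in the fibroblast. MMP14, its activator, was at 3.85, 9.91 and 444, TIMP2 at 33.7, 13.0 and 185, and TIMP3 at 5.33, 14.7 and 97.9. Over PSC cells MMP14 ranged from 0.833 to 33.2, so its lower call may rest on single cells. Of 6 tested genes for collagen-binding matrix proteins 3 were higher and 1 lower than in PSC cells. NID1, which links laminin to type IV, was at 87.6, 27.2 and 450.4, SPARC at 362, 173 and 3823, BGN at 2.69, 0.749 and 91.5, and HSPG2, the basement membrane proteoglycan perlecan, at 449, 1270 and 2508. Against the fibroblast 8 of 9 were lower.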

How the data were processed

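Single-cell RamDA-seq libraries were made from sorted marmoset cells. The deposited values are a signal, namely read counts that the authors divided by a factor for each cell. Tools listed by the submitters' processing notes are Seurat 3.0.0, featureCounts 1.5.1, STAR 2.6.0c and Trimmomatic, without their roles. The genome build, annotation and strand setting were not given in the sources used here. Hence overlapping or antisense genes cannot be told apart, and no level was divided by transcript length. All values (100%) lay within 0.02 of a whole number of reads, with a largest deviation of 0.0117. The row without a gene name, at most 0.449% of a cell, was left out.

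Groups were taken from the labels. Group means were compared on the log2(value + 1) scale and called past 2-fold, for genes whose mean reached 1 in either group. With 1 culture per group no p-value was computed. Shares carry exact Clopper-Pearson intervals at 95%, and for a group without reads, folds take 3 reads in that group as its floor (0.648 normalized counts in PSC cells, 0.0618 in iNSLCs and 1.21 in the fibroblast), both for counting error only. Pearson's r used log2 values over iNSLCs. Thinning drew 131531 reads from each of 58 iNSLCs and left out the 7 shallowest. Python 3.11.15, pandas 2.3.3, numpy 2.4.6, scipy 1.17.1 and matplotlib 3.10.9 were used, and the steps were tested on simulated data.

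The collagen genes, lists, markers and the division at cell number 56 were chosen with earlier results of these data known. Values are given for members with a mean of at least 10 in a group and for 5 genes most like each of 4 members. From each list, up to 4 members with the largest log2 ratio to PSC cells are given, again only where a group mean reached 10. Others were chosen after their values were seen. These were members under that mean that a count or chain pair names, SERPINH1, SOX2, COLGALT2, ADAMTS3, TIMP1, LIN28A, DCN, LUM and PRRX1. All 44 symbols matched a RefSeq marmoset annotation, calJac240_pri, used for neighbours only. Alternatives were another pseudocount, filter, scaling, average, depth and detection limit, and leaving out each PSC cell.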

Additional observations from a re-analysis of the deposited data

Results flagged for a closer look

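Within the 4 ESCs, 26 collagen measures were examined and 7 were flagged, each of them the level of a single gene. In these a cell stood apart from the other 3 by more of the range than chance gives in about 1 in 20 groups of normally distributed values. Counts in single cells need not be so distributed, and the limit was not adjusted for the 26 measures. COL16A1 and COL24A1 had no read in any ESC, so no cell could stand apart for them. COL4A2 was at 243 normalized counts in ESC 10 and at 67.0 to 97.0 in the others. COL6A2 was at 357 in ESC 11 against 13.0 to 51.6, and COL8A1 at 23.0 in ESC 11 against 0 to 3.33. COL4A6 was low in ESC 12, at 4.86 against 25.0 to 25.9. The remaining 3 rest on few reads, with the other 3 ESCs at 0: COL13A1 was at 2.43 and COL3A1 at 0.405 in ESC 10, and COL12A1 was at 0.540 in ESC 12. With the others at 0 the gap is the whole range for any value, so these flags were fixed in advance.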

How the results depend on the processing

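No paired analysis was possible because the groups share no cell numbers and no test was made. With a pseudocount of 10 in place of 1, 5 collagen genes in place of 10 were higher and 7 in place of 14 lower in iNSLCs than in PSC cells. With a mean of at least 10, 19 genes were left and 6 were higher and 7 lower, fewer genes being tested. Leaving out each PSC cell in turn gave 9 to 12 higher and 12 to 16 lower, and a log2 ratio of the summed level from -0.45 to 0.13, the last without ESC 11. COL4A1 and COL4A2 were found together in 100% of cells numbered 57 or above, and COL1A1 and COL1A2 had r 0.51 in those numbered 56 or below. Between the sets of cell numbers, 3 in place of 1 were lower when a mean of at least 1 in either set was enough, a filter chosen after seeing the data. Scaling cells to equal totals moved the median of all genes from -0.37 to -0.08 against PSC cells and from -0.08 to 0.64 against the fibroblast.

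Of 16 collagens with given values that were called against PSC cells, 15 kept their direction and 10 stayed past 2-fold in 13 alternatives. COL4A1 was at -0.96 with medians, COL5A3 at -0.91 and COL4A5 at 0.96 with a pseudocount of 10, COL25A1 at -0.89 without ESC 11, COL8A1 at -0.18 without ESC 11, and COL12A1 at 0 with medians. Against the fibroblast all 24 called kept their direction in 5 alternatives, and COL4A1 (-0.55), COL27A1 (-0.86) and COL18A1 (-0.65) were within 2-fold after scaling. Depth limits the sparse genes, since a share counts cells with a read, and with 5 PSC cells and 1 fibroblast the spread of those groups is poorly known.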
